A study of Mus musculus with 8 samples.

Results

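Gas5, Snhg1, Snhg3, Snhg5, Snhg6, Snhg8, Snhg11 and Snhg12 are transcripts without a known protein that carry small nucleolar RNAs (snoRNAs) in their introns. The 8 were picked by symbol as non-coding snoRNA hosts, out of 24344 gene symbols in the expression table. The pick was made with earlier results of these data known, and none of the 8 stood on more than 1 row. They were measured by RNA-seq in homogenates of the occipital cortex, the visual part of the neocortex, of C57BL/6J mice at postnatal day 35. Of the 8 libraries, 4 came from mice that had gone without food for 48 h (fasted) and 4 from mice fed ad libitum. The series title concerns beta-hydroxybutyrylation of histones, a mark made from a ketone body whose blood level rises in fasting.

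A snoRNA is cut out of the intron of its host and guides the methylation, pseudouridylation or cleavage of ribosomal RNA. C/D box snoRNAs direct methylation and H/ACA box snoRNAs direct pseudouridylation, while a few of either class act in the cutting of the precursor. The spliced host RNA that is left over has only short reading frames, so that its translation exposes it to nonsense-mediated decay. In human cells and mouse cell lines many hosts begin with a pyrimidine tract (a 5′ terminal oligopyrimidine, or TOP, start) like that of ribosomal protein messages, whose translation follows nutrient signalling through mTORC1. Gas5 takes its name from growth arrest: its RNA builds up when cells stop growing, because translation and with it decay slow down. Human GAS5 RNA is also known to bind the DNA-binding domain of the glucocorticoid receptor.

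The annotation (GENCODE M21, GRCm38, the assembly also called mm10) placed 29 snoRNAs on the host strand within the 8 genes. Gas5 (chr1:161034422-161038539) held 9 of them and Snhg1 (chr19:8723475-8726443) held 8. Snhg12 (chr4:132308623-132311024) held 4. Snhg3 (chr4:132348014-132353686), Snhg5 (chr9:88521050-88522929) and Snhg11 (chr2:158375638-158386145) held 2 each, and Snhg6 (chr1:9941959-9944118) and Snhg8 (chr3:123507552-123508404) held 1 each. Of the 29, 22 overlapped no exon of a transcript other than those annotated as retaining an intron, and 7 overlapped such an exon, Snora73a and Snord99 among them. Snhg12 and Snhg3 lie 37.0 kb apart on chromosome 4. GENCODE labels Snhg11 protein-coding and RefSeq labels it a long non-coding RNA. RefSeq labels the other 7 long non-coding RNAs as well.

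**Figure D1:**
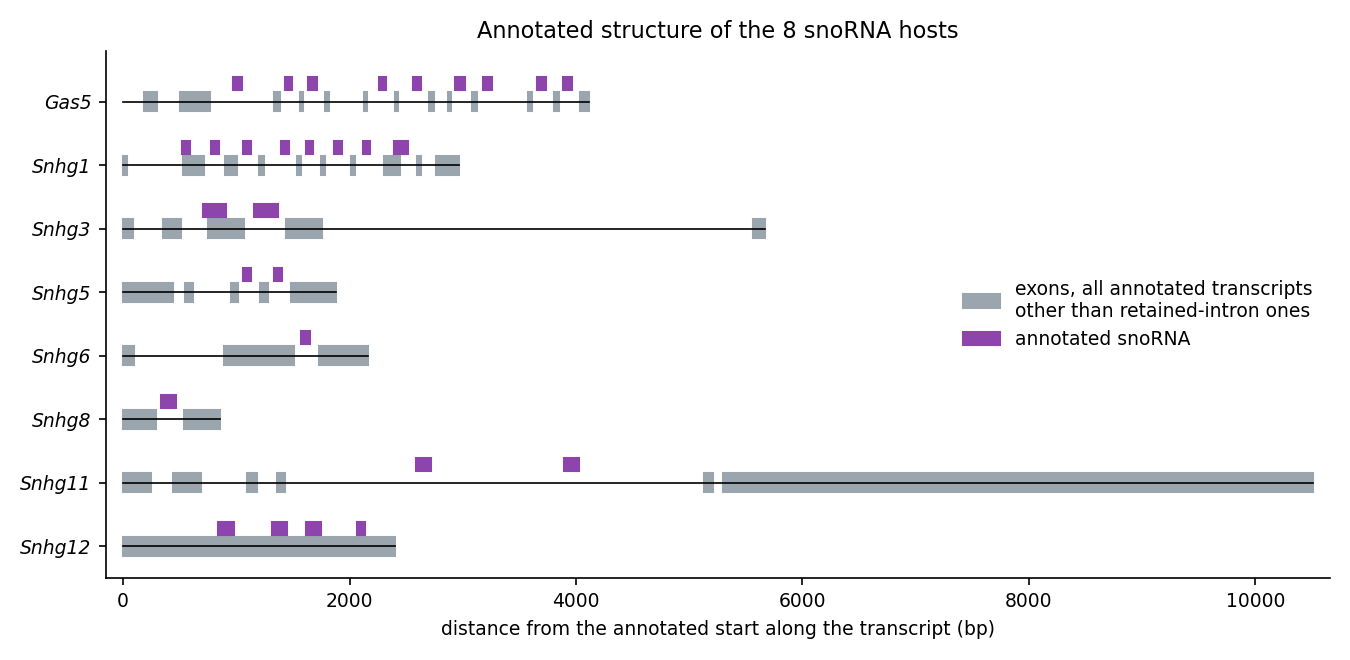
Exons (grey) and annotated snoRNAs (purple) of the 8 hosts, drawn by distance in bp from the annotated start along the transcript. Gas5 and Snhg1 hold 9 and 8 snoRNAs, of which 2 in Snhg1 overlap an exon, while Snhg11 is the longest gene, with 2.

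The snoRNAs printed here are those of Snhg3, the host with the largest change in fasted cortex, and one for each of 5 other hosts. Capitals mark the letters TGATGA (box C) and CTGA (box D), or the ACA that ends 3 bases before the 3′ end of an H/ACA snoRNA. These letters were found in 17 and 5 of the 29 snoRNAs, and the other 7 held neither set in the exact form searched. The sequences are from the GENCODE M21 transcripts (GRCm38).
Snora73a (in Snhg3, chr4:132352775-132352979, minus strand): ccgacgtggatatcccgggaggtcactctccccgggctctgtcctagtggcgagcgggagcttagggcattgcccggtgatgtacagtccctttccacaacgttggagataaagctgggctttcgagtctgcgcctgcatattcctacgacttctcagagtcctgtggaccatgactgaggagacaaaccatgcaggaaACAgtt
Snora73b (in Snhg3, chr4:132352322-132352526, minus strand): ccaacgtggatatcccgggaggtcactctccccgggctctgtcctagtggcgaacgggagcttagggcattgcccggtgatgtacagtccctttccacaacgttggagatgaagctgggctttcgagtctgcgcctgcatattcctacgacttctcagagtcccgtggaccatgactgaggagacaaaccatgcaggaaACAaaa
Snord47 (in Gas5, chr1:161038082-161038158, plus strand): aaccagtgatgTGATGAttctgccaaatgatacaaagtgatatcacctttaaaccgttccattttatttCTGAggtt
Snord50a (in Snhg5, chr9:88521529-88521600, minus strand): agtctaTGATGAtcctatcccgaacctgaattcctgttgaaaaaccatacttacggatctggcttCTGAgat
Snord87 (in Snhg6, chr1:9942463-9942549, minus strand): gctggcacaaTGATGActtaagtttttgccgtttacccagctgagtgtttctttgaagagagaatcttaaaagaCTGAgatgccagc
Snora24 (in Snhg8, chr3:123507937-123508066, minus strand): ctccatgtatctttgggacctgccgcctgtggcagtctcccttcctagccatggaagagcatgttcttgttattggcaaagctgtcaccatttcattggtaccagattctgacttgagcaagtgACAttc
Snord99 (in Snhg12, chr4:132310691-132310764, plus strand): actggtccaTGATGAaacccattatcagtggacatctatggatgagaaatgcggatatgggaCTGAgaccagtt
The copies in Snhg3, known as U17, act in the cutting of the 18S rRNA precursor, and differed at 7 of 205 bases. Snord50a and Snord50b, both in Snhg5, differed at 1 of 72 bases. The expression table cannot show the snoRNAs themselves. It has rows for 121 annotated snoRNA genes, of which 112 were listed at 0 in all 8 libraries and none was above 0 in as many as 4. Of the 29 snoRNAs in the hosts, 8 had a row and 7 of these were listed at 0 throughout. Every value below is thus from the row of a host. Where a snoRNA overlaps an exon, its reads may have been counted in that row. Gm25855 and Snord22 in Snhg1, Snora73a in Snhg3 and all 4 snoRNAs of Snhg12 overlap one. Their part in the host values was not tested.

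RefSeq's promoter table (GRCm38.p6) held 8 starts for 7 of the hosts, 2 of them for Gas5. Each sequence below runs from 15 bases before the annotated start to 30 bases from it, since a TOP tract sits at the first base. Capitals mark the longest run of a C followed by 4 or more pyrimidines (C or T) that begins within 5 bases of the start.
Gas5, first start (chr1:161034586-161034630, plus strand): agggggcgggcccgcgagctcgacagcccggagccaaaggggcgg
Gas5, second start (chr1:161035151-161035195, plus strand): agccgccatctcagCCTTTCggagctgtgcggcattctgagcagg
Snhg1 (chr19:8723472-8723516, plus strand): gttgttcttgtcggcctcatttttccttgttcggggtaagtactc
Snhg3 (chr4:132353657-132353701, minus strand): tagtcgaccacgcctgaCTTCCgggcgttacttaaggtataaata
Snhg5 (chr9:88522868-88522912, minus strand): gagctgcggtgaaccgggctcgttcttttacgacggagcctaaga
Snhg8 (chr3:123508307-123508351, minus strand): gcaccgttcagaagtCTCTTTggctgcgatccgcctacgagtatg
Snhg11 (chr2:158375698-158375742, plus strand): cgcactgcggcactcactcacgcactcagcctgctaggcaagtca
Snhg12 (chr4:132308663-132308707, plus strand): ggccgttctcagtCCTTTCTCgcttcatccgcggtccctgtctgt
A C with 4 or more pyrimidines stood exactly at the start in 2 of the 8, the second start of Gas5 and that of Snhg8, as in 2.51% of all 32851 starts in the table and 16.4% of 73 starts of ribosomal protein genes. Within 5 bases of the start it was found in 4 of the 8 (Gas5, Snhg3, Snhg8 and Snhg12), in 18.3% of all starts and in 41.1% of those of ribosomal protein genes. In the whole window of the table (250 bases before the start and 50 from it, both strands) TATAAA occurred at 4 of the 8 starts, those of Snhg1, Snhg3, Snhg5 and Snhg8, and in 13.6% of all. For Snhg3 a match lies after the annotated start, in the sequence printed above. CCATNTT was found for Snhg3 and Snhg11 (16.1% of all), the NRF1 palindrome for Snhg1 and Snhg3 (4.60% of all) and CCGGAAGT for Snhg3 (3.89% of all). CACGTG (7.15% of all) and the full palindrome of the glucocorticoid response element (0.00913% of all) were at none of the 8. A match is only a run of letters, and the absence of one says nothing of the factor.

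The libraries were not equal in all respects. Libraries 1 and 3 of the fasted mice and 1 of the fed mice held Y-linked transcripts and almost no Xist, and libraries 2 and 4 of both groups the reverse. Ad libitum replicate 3 held both, with Xist at 32.2 FPKM (fragments scaled by transcript length and library size) and Eif2s3y at 10.2 FPKM, so results are also given without it. Libraries of the same replicate number deviated from their group means together (correlations across genes of 0.382 to 0.574). Between a fasted and a fed library of different numbers the correlation reached 0.381. Values with the number as a block are given where they change a call stated here or a count. Depth, read from the smallest step in the values, was about 16900000 to 21800000 fragments per library. At that depth 1 FPKM on a spliced RNA of 600 bases stood for 10.1 to 13.1 fragments. Both figures are rough, since the search for the step was confined to a range. FPKM summed over all symbols ran from 255459 to 281890 in fasted and from 253470 to 360010 in fed libraries, the highest in ad libitum replicate 2.

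Snhg3 and Gas5 rose in fasted cortex, and the other 6 hosts did not pass the test. All 8 passed the filter on low values. Of the 8, 2 were called higher and 0 lower (limma on log2(FPKM + 1), Benjamini-Hochberg adjusted p under 0.05 over 12377 tested genes), and an unadjusted p under 0.05 gave the same counts. The background was 9.56% of tested genes called higher and 16.3% called lower. The same 2 hosts were those whose groups did not overlap, with fasted higher, as in 11.1% of tested genes. The estimated log2 change was positive for 7 hosts, with a median of 0.18 over the 8, beside a median of -0.02 and 44.7% positive over all tested genes. With the replicate number as a block 4 hosts were called higher (Snhg3, Gas5, Snhg1 and Snhg12) and 0 lower, against 14.3% and 22.1% of tested genes. Without ad libitum replicate 3, Snhg3 alone was called, against 6.78% of tested genes called higher. With libraries scaled to equal sums 6 hosts were called higher, all but Snhg5 and Snhg8, against 12.8% of tested genes higher and 4.31% lower, but that scaling also put the median of all genes at 0.08 in place of -0.02. In homogenized tissue, fewer cells of a type and less RNA per cell cannot be told apart.

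**Figure D2:**
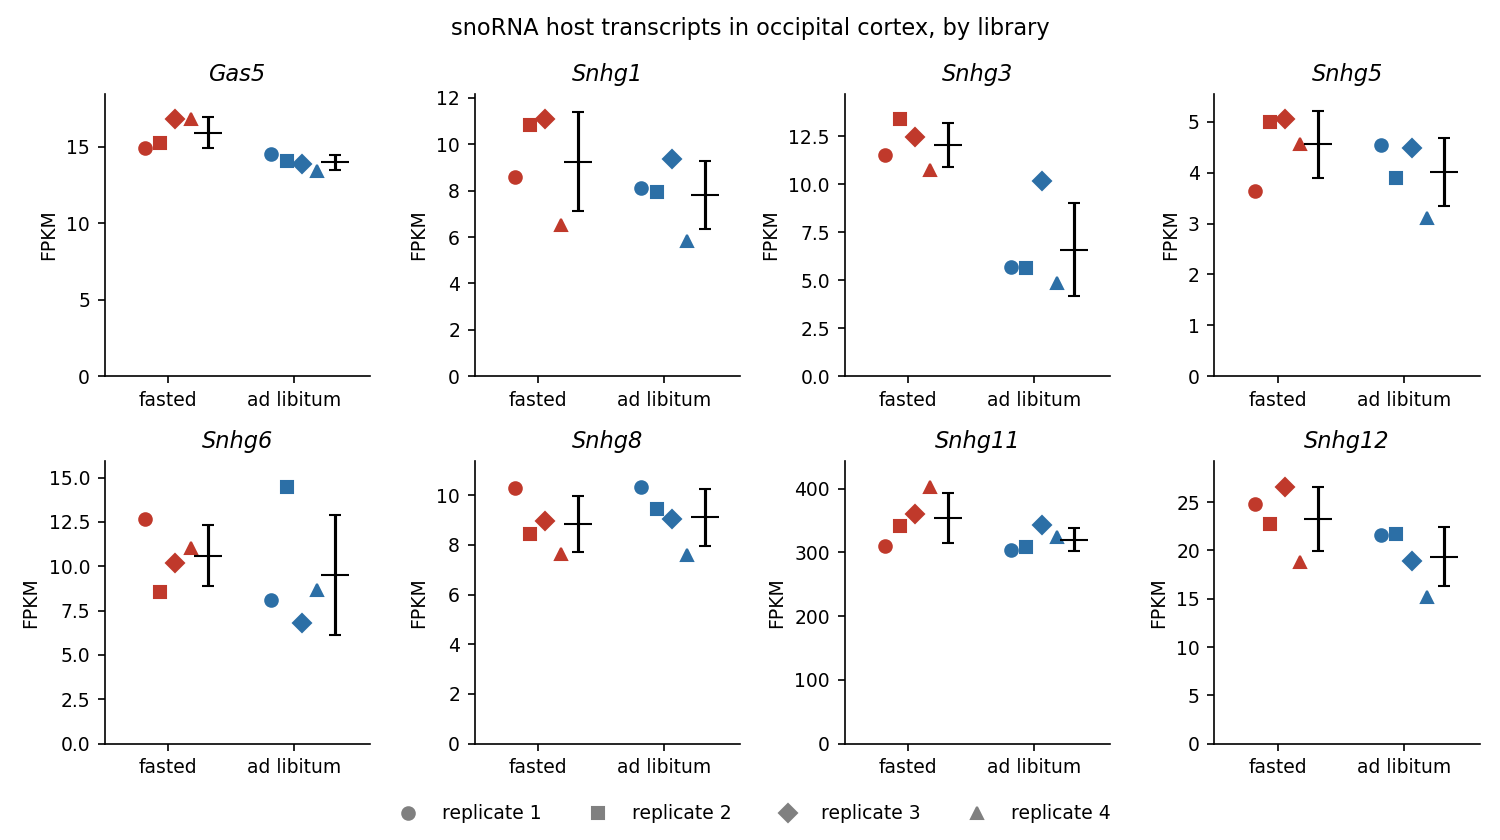
FPKM of each host in the 4 fasted (red) and 4 ad libitum (blue) libraries, with marker shapes for replicate numbers and the mean ± SD in black. The fasted libraries of Snhg3 lie between 10.8 and 13.4 FPKM, above all 4 fed libraries, of which replicate 3 stands at 10.2.

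Snhg3, the host of the U17 snoRNAs Snora73a and Snora73b printed above, had the largest change. Its levels were 11.5, 13.4, 12.5 and 10.8 FPKM in fasted replicates 1 to 4, against 5.69, 5.65, 10.2 and 4.86 FPKM in ad libitum replicates 1 to 4. Every fasted library was above every fed library, but ad libitum replicate 3 came close to the lowest fasted one and stood far above the other fed libraries. The means were 12.04 ± 1.14 FPKM in fasted and 6.60 ± 2.42 FPKM in fed cortex (SD, n = 4 each), a ratio of 1.82. The log2 change was 0.82 with SE 0.170 (limma adjusted p = 0.00638; exact two-sided permutation p = 0.0286, the smallest that 8 libraries allow). Without ad libitum replicate 3 it was 1.02 (limma adjusted p = 0.000162).

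Within the replicate numbers, fasted Snhg3 exceeded fed Snhg3 by 0.91, 1.11, 0.27 and 1.01 on the log2(FPKM + 1) scale, with the smallest difference at number 3. Snhg3 was called higher in each of the other settings tried, with adjusted p up to 0.0399 (sample weights). Its annotated exons share 135 bp with those of Rcc1, the gene for the exchange factor of the GTPase Ran, on the same strand, and their starts lie 81 bp apart. Reads from this stretch may have been assigned to either gene. Rcc1 itself had 3.42, 2.94, 2.70 and 3.07 FPKM in fasted and 2.59, 2.78, 2.51 and 2.01 FPKM in fed libraries, with 0.22 as log2 difference (limma adjusted p = 0.0782, above the threshold). The sum of the Snhg3 and Rcc1 values rose by 0.70 (limma adjusted p = 0.00369, a setting chosen after seeing the data). Snhg3 makes up most of this sum, and each FPKM value is scaled by the length of its own gene. The sum therefore cannot show to which gene the shared reads were assigned. Phactr4, a phosphatase and actin regulator gene upstream on the same strand, was at 0.13 (adjusted p = 0.285). At these levels 1 library held roughly 40 to 119 fragments of Snhg3, so counting error alone is about 15.8% at the low end.

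Gas5, which hosts 9 snoRNAs, rose by much less. It stood at 14.9, 15.2, 16.8 and 16.8 FPKM in the fasted libraries, against 14.6, 14.1, 13.9 and 13.4 FPKM in the fed ones. The groups did not overlap, and the gap between the lowest fasted and the highest fed library was small. The means were 15.9 ± 1.01 FPKM in fasted and 14.0 ± 0.479 FPKM in fed cortex (SD, n = 4 each), a difference of 13.9%. The log2 change was 0.17 with SE 0.0558 (limma adjusted p = 0.0396; exact permutation p = 0.0286). The call ended without any 1 of fasted replicates 3 and 4 and ad libitum replicates 2, 3 and 4 (adjusted p = 0.110, 0.0995, 0.0749, 0.0960 and 0.0635). Testing all genes without the filter gave an adjusted p of 0.0538, and a covariate for odd against even numbers gave 0.0502.

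Zbtb37, a zinc finger gene read from the opposite strand whose start lies 427 bp from that of Gas5, had means of 1.16 ± 0.148 FPKM in fasted and 1.66 ± 0.478 FPKM in fed cortex (SD, n = 4 each). Its log2 change of -0.29 missed the threshold (limma adjusted p = 0.0782) and was past it with the replicate block (adjusted p = 0.0256). Whether the libraries keep strand is not given in the sources used here, so reads of Gas5 and Zbtb37 in the 428 bp they share cannot be told apart. Their annotated exons share no base.

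Snhg12, the host of Snord99 and 3 other snoRNAs, had 24.8, 22.8, 26.6 and 18.8 FPKM in fasted and 21.6, 21.8, 18.9 and 15.2 FPKM in fed libraries. The groups overlapped, replicate 4 was the lowest of each group, and within every number the fasted library was the higher. The log2 change was 0.25 (95% confidence interval -0.01 to 0.52, limma adjusted p = 0.141). With the replicate number as a block it passed (limma adjusted p = 0.0116), as it did with GC and length offsets (0.0491) and without fasted replicate 4 (0.0470). Without ad libitum replicate 4 the log2 change was 0.15 (limma adjusted p = 0.293).

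Snhg1, with 8 snoRNAs including the U22 gene Snord22, had 8.58, 10.8, 11.1 and 6.52 FPKM in fasted and 8.12, 7.95, 9.37 and 5.83 FPKM in fed libraries. Replicate 4 was again the lowest of both groups and the groups overlapped widely. The log2 change was 0.21 (95% confidence interval -0.14 to 0.56, limma adjusted p = 0.357). It passed with the replicate block (limma adjusted p = 0.0243), with the fasted library higher by 0.07, 0.40, 0.22 and 0.14 within numbers 1 to 4. Without 1 library the log2 change ran from 0.09 (without ad libitum replicate 4) to 0.35 (without fasted replicate 4), and was called in none of these fits. Slc3a2, the amino acid transporter heavy chain gene that starts 106 bp away on the other strand, was at -0.07 (adjusted p = 0.362). Trnau1ap, a tRNA-selenocysteine factor gene 739 bp from Snhg12, was at 0.16 (adjusted p = 0.405).

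Snhg11 was by far the most abundant host, with 310.2, 341.7, 360.2 and 403.3 FPKM in fasted and 303.2, 309.3, 343.4 and 324.2 FPKM in fed libraries. The highest library was fasted, but the groups overlapped. The log2 change was 0.14 (95% confidence interval -0.04 to 0.32, limma adjusted p = 0.229, and 0.0530 with the replicate block), and 0.07 without fasted replicate 4. It was higher in the fasted library within each of the 4 numbers, as were Snhg3, Gas5, Snhg1 and Snhg12, 5 of the 8 hosts beside 21.7% of tested genes. With the block and GC and length offsets in 1 fit, chosen after seeing the data, it passed (limma adjusted p = 0.0130), and 5 hosts in all were called higher and 0 lower, beside 20.8% and 20.2% of tested genes.

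Snhg5, Snhg6 and Snhg8 hold 1 or 2 snoRNAs each and did not pass the test. Snhg5, the least abundant host, had 3.63, 4.99, 5.05 and 4.57 FPKM in fasted and 4.54, 3.90, 4.49 and 3.11 FPKM in fed libraries. The groups overlapped, with the fasted library of replicate 1 among the lowest. Its log2 change was 0.15 (95% confidence interval -0.09 to 0.39, limma adjusted p = 0.336), and replicate 1 went the other way, by -0.26. Without 1 library it ran from 0.06 (without ad libitum replicate 4) to 0.24 (without fasted replicate 1), and was not called.

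Snhg6 had 12.7, 8.56, 10.2 and 11.0 FPKM in fasted and 8.09, 14.5, 6.81 and 8.67 FPKM in fed libraries. The groups overlapped and the highest value of all was ad libitum replicate 2. Its log2 change was 0.18 (95% confidence interval -0.26 to 0.62, limma adjusted p = 0.529). Without that library it rose by 0.38 (limma adjusted p = 0.0412), while without ad libitum replicate 3 or fasted replicate 1 the value was 0.05 or 0.10 (adjusted p = 0.858 and 0.764). Its annotated exons overlap those of Mcmdc2, a meiosis gene on the other strand, by 127 bp.

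Snhg8, host of Snora24, had 10.3, 8.44, 8.97 and 7.64 FPKM in fasted and 10.3, 9.46, 9.05 and 7.60 FPKM in fed libraries. Library by library the groups were nearly equal, and within each group replicate 1 was the highest and replicate 4 the lowest. The log2 change was -0.04 (95% confidence interval -0.25 to 0.17, limma adjusted p = 0.786), an interval that leaves out a change as large as that of Snhg3. Its sign turned in 5 of the settings tried, among them equal-sum scaling (0.07) and GC and length offsets (0.01). Prss12, a serine protease gene 955 bp away, was at -0.07 (adjusted p = 0.558).

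**Figure D3:**
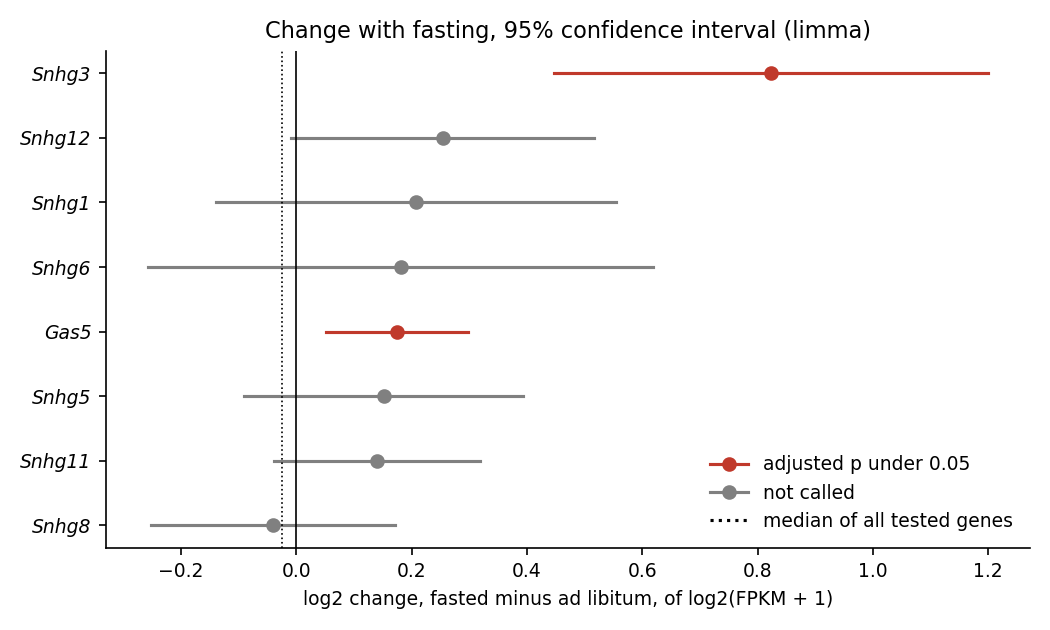
Log2 change of each host, fasted minus ad libitum, on the log2(FPKM + 1) scale with limma's 95% confidence interval, with called hosts in red and the median of all tested genes dotted. Snhg3 lies at 0.82 and Gas5 at 0.17, while the intervals of the other 6 include 0.

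Per unit of length, the order of the hosts in fasted cortex was Snhg11 (353.8 FPKM ± 38.9), Snhg12 (23.2 ± 3.33), Gas5 (15.9 ± 1.01), Snhg3 (12.04 ± 1.14), Snhg6 (10.6 ± 1.71), Snhg1 (9.25 ± 2.14), Snhg8 (8.83 ± 1.12) and Snhg5 (4.56 ± 0.656; SD, n = 4 each). The ranges of neighbours overlapped from Snhg3 to Snhg8. In fed cortex the order was Snhg11 (320.0 ± 17.9), Snhg12 (19.4 ± 3.06), Gas5 (14.0 ± 0.479), Snhg6 (9.51 ± 3.41), Snhg8 (9.11 ± 1.14), Snhg1 (7.82 ± 1.47), Snhg3 (6.60 ± 2.42) and Snhg5 (4.01 ± 0.669; SD, n = 4 each). There the ranges of neighbours overlapped from Gas5 to Snhg3. Snhg3 was thus at place 4 in fasted and place 7 in fed cortex, the largest move among the 8 hosts. The mean of Snhg11 lay above 99.4% of tested genes and that of Snhg5 above 28.9%.

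**Figure D4:**
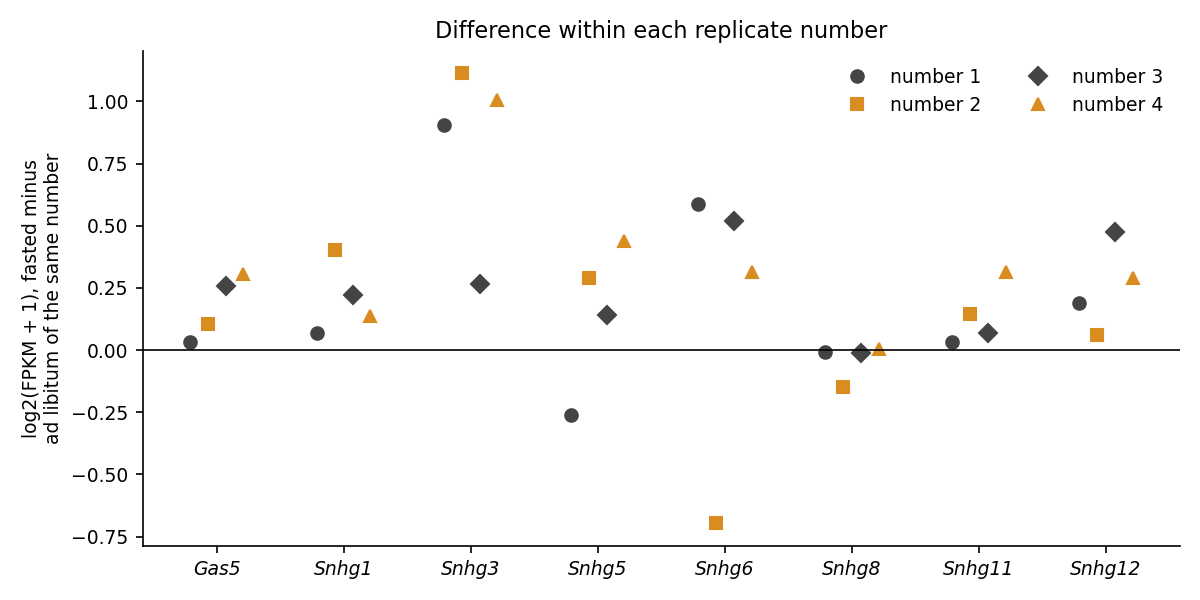
Difference between the fasted and the ad libitum library of the same replicate number for each host, on the log2(FPKM + 1) scale, with odd numbers dark and even numbers orange. Snhg3 lies at 0.27 to 1.11, and Gas5, Snhg1, Snhg11 and Snhg12 are above 0 at all 4 numbers.

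Within the groups the hosts did not vary as 1 block. For Snhg8 and Snhg12 the deviations of the libraries from their group means correlated at 0.87, for Snhg1 and Snhg12 at 0.75 and for Snhg1 and Snhg3 at 0.69, while for Snhg8 and Snhg11 the value was -0.73 (Pearson's r over 8 libraries, given as a description). These libraries also share replicate number and depth. Over all 8 libraries, the tested genes most like the mean profile of the hosts were Srsf6, a splicing factor gene (r = 0.985), Carhsp1, for an RNA-binding cold shock domain protein (r = 0.970), Atg16l1, an autophagy gene (r = 0.965), Hmgn3, for a nucleosome-binding protein (r = 0.962), and Tsen54, for a tRNA splicing subunit (r = 0.958). The gene most like Snhg3 was Edem1, which acts in degradation of misfolded proteins of the endoplasmic reticulum (r = 0.983), and the one most like Snhg12 was Cnbp, whose protein binds TOP messages (r = 0.983). The nearest to Gas5 was Ubxn11 (r = 0.955), to Snhg1 Pfn4 (r = 0.970), to Snhg5 Spry1 (r = 0.945), to Snhg6 Smurf1 (r = 0.966), to Snhg8 Nat6 (r = 0.981) and to Snhg11 Cstf2 (r = 0.946). All these genes were picked for the highest r among the tested genes outside the hosts, over only 8 libraries. Such picking favours high values, and a shared function was not tested.

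Other non-coding hosts were next compared with the 8. Of 23 further genes of the table that GENCODE types as non-coding and that span a snoRNA on their strand, 11 were tested, among them the chaperonin gene Cct6a, whose locus GENCODE types so. Of the 11, 4 rose and 1 fell, with a median log2 change of 0.12 (4 and 2 with the block, 2 and 1 without ad libitum replicate 3). In a hand-picked list of further non-coding hosts that shares Snhg14, Snhg17 and Rian with these, 8 were tested, 1 rose and 1 fell, with a median of 0.14 (2 and 1 with the block, 0 and 0 without ad libitum replicate 3). Snhg4, Snhg7, Snhg10, Snhg17 and Snhg20 of that list were not called, at 0.16, 0.19, 0.42, 0.12 and -0.19. With the block Snhg10 passed (limma adjusted p = 0.0175, against 0.0876 without it). Among the 11, the host that fell differed between fits. It was Rian in the main fit, and with the block Rab26os fell too (-0.31, limma adjusted p = 0.0223, against 0.322 without the block). Without ad libitum replicate 3 it was Dancr, at -0.34 (limma adjusted p = 0.0370, against 0.108 with that library). Dancr and Rab26os were named after their values were seen. The largest rise was that of 1110038B12Rik, at 8.50, 8.66, 8.92 and 9.20 FPKM in fasted and 6.51, 5.22, 6.81 and 3.62 FPKM in fed libraries. Its groups did not overlap and its log2 change was 0.62 (SE 0.135, limma adjusted p = 0.00753, highest 0.0237 over the settings tried). 2410006H16Rik, named after its values were seen, rose by 0.43, with 27.6 ± 4.45 FPKM in fasted and 20.3 ± 3.29 FPKM in fed cortex (SD, n = 4 each; limma adjusted p = 0.0325, and 0.000116 with the replicate block). It did not pass without any 1 of fasted replicates 1, 2 and 3 and ad libitum replicates 3 and 4 (adjusted p = 0.0824, 0.0959, 0.0701, 0.0706 and 0.0654), nor with no filter on low genes (0.0650).

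Snhg14, the long host of the imprinted Snord115 and Snord116 clusters, rose by 0.27 (limma adjusted p = 0.0288, and 0.0628 without ad libitum replicate 3). 1810032O08Rik, at 1.35 ± 0.185 FPKM in fasted and 0.871 ± 0.244 FPKM in fed cortex (SD, n = 4 each), rose by 0.34 (limma adjusted p = 0.0285). Rian, the maternally expressed host of the imprinted Dlk1-Dio3 region, fell to 121.8 ± 1.26 FPKM in fasted, against 139.5 ± 3.55 FPKM in fed cortex (SD, n = 4 each; log2 change -0.19, limma adjusted p = 0.0137). Its call ended with equal-sum and quantile scaling (adjusted p = 0.685 and 0.0664) and without ad libitum replicate 3 (0.0538). The calls of Snhg14 and 1810032O08Rik each ended without any 1 of 5 libraries (adjusted p up to 0.0807 and 0.0801).

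Among coding hosts changes went both ways, as they did over all tested genes. Of all tested genes 9.56% were called higher and 16.3% lower. With the block the shares were 14.3% and 22.1%, and without ad libitum replicate 3 they were 6.78% and 11.1%. These shares are the background for the lists that follow as well. Of 206 tested coding genes that span a snoRNA on their strand 17 rose and 26 fell, with a median log2 change of -0.01 (26 and 43 with the replicate block, 10 and 17 without ad libitum replicate 3). The phosphoinositide kinase gene Pip5k1a rose to 18.5 ± 0.701 FPKM in fasted, against 14.1 ± 0.115 FPKM in fed cortex (SD, n = 4 each; limma adjusted p = 0.000381). The zinc finger gene Zfp935 fell to 2.62 ± 0.228 FPKM in fasted, against 4.26 ± 0.245 FPKM in fed cortex (SD, n = 4 each; limma adjusted p = 0.000357). Ubap2 fell by 0.38 on the log2 scale (limma adjusted p = 0.00137, and 0.0775 with equal-sum scaling). In a shorter list of 37 coding hosts known from the literature 2 rose and 5 fell (3 and 12 with the block), among them Wdr43, for a nucleolar factor of pre-rRNA processing, at 0.31, the importin gene Ipo7 at -0.32 and the translation factor gene Eif4g2 at -0.29. The calls of Ipo7 and Eif4g2 ended with equal-sum scaling (limma adjusted p = 0.185 and 0.267).

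**Figure D5:**
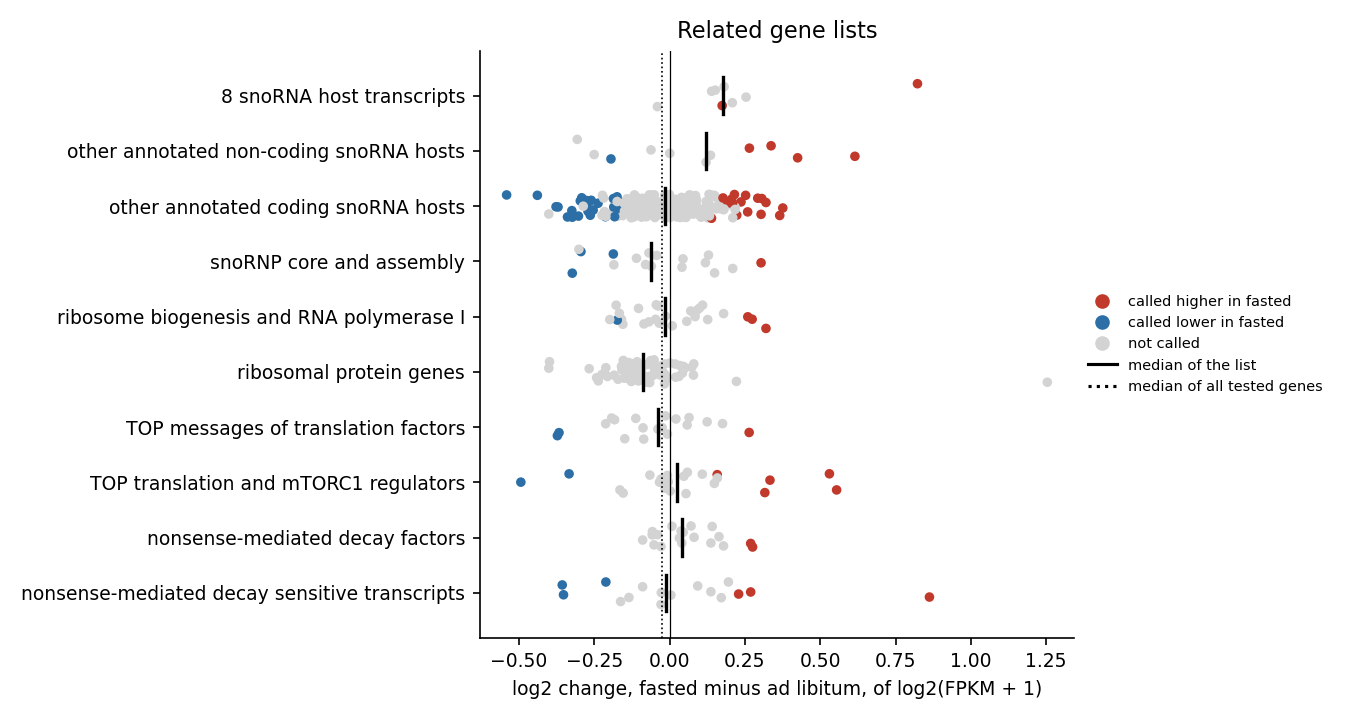
Log2 change, fasted minus ad libitum, of each tested gene of the 8 hosts and of 9 related lists, with red for called higher, blue for called lower, a black bar for the list's median and a dotted line for the median of all tested genes. The median of the 8 hosts is 0.18, that of 77 ribosomal protein genes -0.09.

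The proteins that bind snoRNAs did not move one way. Of 17 tested genes of the snoRNP core and its assembly 1 rose and 3 fell, with a median log2 change of -0.06 (3 and 4 with the block). Nop56, a core protein of C/D box particles whose own gene hosts snoRNAs, rose to 30.8 ± 2.12 FPKM in fasted, against 24.7 ± 0.819 FPKM in fed cortex (SD, n = 4 each; limma adjusted p = 0.00318). Dkc1, the pseudouridine synthase of H/ACA particles, fell to 5.55 ± 0.431 FPKM in fasted, against 7.18 ± 0.112 FPKM in fed cortex (SD, n = 4 each; limma adjusted p = 0.00301). Nhp2l1, the C/D core protein that binds the kink turn, had a log2 change of -0.29 (limma adjusted p = 0.00394). Dkc1 and Nhp2l1 lost their calls with equal-sum scaling (adjusted p = 0.163 and 0.260).

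In ribosome biogenesis and RNA polymerase I 3 of 27 tested genes rose and 1 fell, with a median of -0.01 (4 and 4 with the block, 3 and 0 without ad libitum replicate 3). The nucleolar genes Nop14, Gnl3 and Ddx21 rose by 0.27, 0.32 and 0.26. The call of Ddx21 ended without any 1 of 5 libraries (limma adjusted p up to 0.0708). Of 77 ribosomal protein genes 0 were called in either direction by limma, with a median of -0.09 (0 higher and 5 lower at an unadjusted p under 0.05), and with the block 1 rose and 16 fell. TOP messages of translation factors gave 1 higher and 2 lower of 19 (2 and 6 with the block), with a median of -0.04. Regulators of TOP translation and mTORC1 gave 5 higher and 2 lower of 22, with a median of 0.02 (6 and 4 with the block).

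Of 19 tested factors of nonsense-mediated decay and of the exonuclease step after it 2 rose and 0 fell, with a median of 0.04 (4 and 0 with the block, 1 and 0 without ad libitum replicate 3). Upf3b, which links the exon junction complex to the decay factor UPF1, rose by 0.27 on the log2 scale (limma adjusted p = 0.0109). The exonuclease gene Xrn1 rose by 0.28 (limma adjusted p = 0.0243, and up to 0.0728 without any 1 of 5 libraries). Of 16 tested messages known as targets of this decay 3 rose and 3 fell, with a median of -0.01 (5 and 4 with the block). Upf3b was in this list too, so its rise is counted in both lists. Cdkn1a, the cell cycle inhibitor p21, rose to 18.1 ± 2.80 FPKM in fasted, against 9.49 ± 1.47 FPKM in fed cortex (SD, n = 4 each; limma adjusted p = 0.000637), and Chac1, a glutathione-degrading enzyme of the ATF4 response, fell by 0.36 (0.0762 with equal-sum scaling, as adjusted p).

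Of 9 tested nuclear long non-coding RNAs 0 rose and 2 fell, with a median of -0.11 (1 and 4 with the block). Rian, given above as a snoRNA host, was among those that fell. The glucocorticoid receptor and its leading targets, a list known from earlier results of these data to move, gave 8 higher and 1 lower of 9.

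Markers of cell types moved in part. Of 10 neuronal markers 3 were called lower and 0 higher (3 and 1 with the block, 0 and 0 without ad libitum replicate 3), and their summed level was 2512 to 2660 FPKM in fasted and 2381 to 2656 FPKM in fed libraries. Of 8 microglial markers 4 were called lower and 0 higher (6 and 0 with the block), with sums of 93.4 to 108.5 FPKM in fasted and 105.0 to 145.1 FPKM in fed libraries. Of 8 astrocyte markers 3 were called lower and 0 higher (3 and 1 with the block), with sums of 764.8 to 838.0 FPKM in fasted and 787.0 to 850.8 FPKM in fed libraries. Endothelial and mural markers fell in 1 of 7 cases, with sums of 40.0 to 46.8 FPKM in fasted and 48.0 to 55.0 FPKM in fed libraries. Oligodendrocyte markers gave 1 higher and 1 lower of 8 (2 and 2 with the block), and their precursors 0 and 2 of 5. Of 3 tested blood markers and 1 tested choroid plexus and ependyma marker 0 were called by limma. None of these markers was at 0 in all libraries. The part of these shifts in the levels of the hosts was not tested.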

How the data were processed

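The data were RNA-seq libraries of occipital cortex from 4 fasted and 4 ad libitum mice, grouped by treatment label and numbered by title. The labels do not say how the mice of a group were housed or bred, and p-values measure the spread between these libraries. Per the submitters' processing notes, TopHat and mm10 were used. Not given in the sources used here are the quantifier, the annotation and strandedness. The authors deposited FPKM values in 1 table of 24883 rows, and no scaling between libraries is stated. For 282 symbols on several rows the row with the highest mean was kept. Symbols matched GENCODE M21 (GRCm38) in 95.6% of cases.

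The test took genes that reached 1 FPKM in 4 or more libraries and was made with limma 3.58.1 (R 4.3.3) on log2(FPKM + 1), group as the only term, with trend and robust moderation and Benjamini-Hochberg adjustment over all 12377 genes. Changes on this scale understate those of low genes. For single values an exact permutation test, two-sided, ran over 70 assignments. Tables were made in Python 3.11.15 (pandas 2.3.3), figures with matplotlib 3.10.9.

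Replicate numbers were taken as pairing the libraries because same-numbered libraries correlated in their deviations from the group means, at 0.574, 0.496, 0.382 and 0.523, all above the bound of 0.1. The highest correlations of fasted libraries 1 to 4 with a fed library of another number were 0.185, 0.165, 0.381 and 0.289. These are above that bound too, and at number 3 the values were nearly equal, so the pairing is uncertain. It comes from the data, not from a label. Depth was estimated from the value of 1 fragment in genes with a single transcript.

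The members and the gene lists were chosen with earlier results of these data known. Named were the 8 hosts, their coding neighbours within 5 kb, the genes of most similar profile and, from the lists in turn, up to 3 called genes with the smallest p (or 2 where none was called) until 20 were named. Mcmdc2 was not tested because of its low level, and 1 neighbour is not reported here. Alternatives were other pseudocounts (0.1 and 0.5), filters, scalings, GC and length offsets (for the 96.2% of tested genes with a value), sample weights, the replicate block, a covariate for odd against even numbers, and each library left out.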

Additional observations from a re-analysis of the deposited data

Results flagged for a closer look

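Of the values searched in each group of 4 libraries, those that follow stood apart from the other 3 by a gap past Dixon's 95% critical value. Chance flags about 1 group in 20. Among the hosts only Snhg3 was flagged, in ad libitum replicate 3, at 10.2 FPKM beside 4.86 to 5.69 FPKM in the other fed libraries. That library is also the one with both Xist and Y-linked transcripts. The part of that mixture in its Snhg3 level was not tested.

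Among the coding hosts named, Pip5k1a stood apart in ad libitum replicate 3 at 13.9 FPKM, Ipo7 in fasted replicate 3 at 21.1 FPKM, Wdr43 in fasted replicate 2 at 7.88 FPKM and Eif4g2 in ad libitum replicate 1 at 61.0 FPKM. Of the neighbours of the hosts, Slc3a2 did in ad libitum replicate 2 at 41.4 FPKM and Phactr4 in fasted replicate 2 at 2.39 FPKM. Of the genes most like the hosts, Srsf6 and Carhsp1 did in ad libitum replicate 4, at 19.6 and 6.67 FPKM. In all, 9 of 96 groups searched were flagged.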

How the results depend on the processing

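Snhg3 was called higher in each setting tried. The number of hosts called higher was 2, and it was 1 with no filter on low genes, 1 with a covariate for odd against even numbers, 6 with equal-sum scaling, 3 with GC and length offsets, 4 with the replicate block, 5 with the replicate block and GC and length offsets (chosen after seeing the data), and 1 to 2 without 1 library. It was 0 for lower in each of these. The host called beside Snhg3 was not always Gas5. Without fasted replicate 4 it was Snhg12 (limma adjusted p = 0.0470), and without ad libitum replicate 2 it was Snhg6 (limma adjusted p = 0.0412). Over all genes 1183 were higher and 2015 lower. Median-ratio scaling gave 1762 and 1935, quantile scaling 1792 and 1909, equal-sum scaling 1585 and 534, GC and length offsets 2050 and 2079, and the block with these offsets 2477 and 2400. Without 1 library the counts ran from 833 to 1193 higher and from 1362 to 2529 lower.

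Relative to the median of all genes, Snhg3 stood at 0.85 as deposited and with equal-sum scaling. The sign of Snhg8 turned with equal-sum scaling (0.073), GC and length offsets (0.014), these with the block (0.014), and without 1 library (-0.12 to 0.020). Those of Slc3a2 and Prss12 turned with equal-sum scaling (0.050 and 0.042). Nat6 turned with sample weights (-0.014) and without 1 library (-0.053 to 0.051). None of these was called, and the cause was not tested. Of 169 values for the hosts under other settings, 145 kept direction and call. At the lowest levels 40 to 60 fragments stood behind Snhg3, Snhg5 and Snhg1, which limits what could be detected.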
